A study of Arabidopsis thaliana with 6 samples.

Results

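The 10 genes described here build and delimit the shoot apical meristem of Arabidopsis thaliana, the group of stem cells at the shoot tip from which leaves and stem arise. They were taken by a fixed list of locus identifiers, set with earlier results of these data known, and all 10 are among the 33557 loci of the deposited table. They are the class I KNOX homeobox genes STM, KNAT1, KNAT2 and KNAT6, the stem cell genes CLV1, CLV2, CLV3 and WUS, the boundary gene CUC2, and AS1, a gene of leaf identity.

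Messenger RNA was sequenced from the whole aerial part of Col-0 plants grown on soil at 22 °C in a 12 h photoperiod and taken at an age of 21 days, at zeitgeber time 12, the time at which the lights go off. Wild-type plants were compared with the quadruple mutant camta1/2/3/sid2, with 3 libraries named for each. The 3 CAMTA proteins are transcription factors that bind calmodulin, and SID2 is the isochorismate synthase of salicylic acid production. The labels give no alleles, no number of pooled plants and no salicylic acid mutant with working CAMTA genes, so the shares of the 4 mutated genes in any difference cannot be told apart.

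The table gives 1 FPKM value per genotype and locus, combined by the authors. FPKM scales sequenced fragments to transcript length in kilobases and to library size, so levels of different genes can be set side by side. Because the libraries enter only through these combined values, no difference below has a replicate check, a standard error or a p-value, and whether it exceeds the spread between libraries is unknown. Differences are given as the mutant minus the wild type in log2(FPKM + 1), a scale that shrinks differences between low values, and folds printed beside values are plain ratios of FPKM. Where genes are counted as past 1.5-fold or 2-fold, the threshold is on the log2(FPKM + 1) scale. Loci with at least 1 FPKM in at least 1 genotype are called analysed.

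In the meristem, class I KNOX proteins keep cells undifferentiated, in part by raising cytokinin and lowering gibberellin, and they are switched off where a leaf begins. WUS, made in the organising centre, keeps the cells above it as stem cells, and these secrete the CLV3 peptide. CLV3 acts through the receptors CLV1 and CLV2 to restrain WUS, which closes a feedback loop. CUC2 marks the boundary between meristem and organ and helps to activate STM, while AS1 works with AS2 in leaf primordia to keep KNAT1, KNAT2 and KNAT6 off.

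CAMTA proteins are known to bind a DNA motif with the core CGCG. The 300 bases before the annotated start of each of the 10 genes were therefore read and searched for this core. CGCG is its own reverse complement, so a single search covers both strands. It was found in KNAT1 and AS1, once in each, and in none of the other 8 windows. Among 27443 protein-coding nuclear genes, 11.8% of windows of this length held it. Of longer forms that contain the core, only ACGCGT and CCGCGT were searched, on both strands. These were in none of the 10 windows, against 1.91% and 2.01% of all windows. Other longer forms were not searched. A match or its absence describes only these letters. The windows below, from RefSeq on assembly TAIR10.1 and joined by locus identifier, are those of STM and KNAT1, the pair with the largest differences among the analysed members, and of AS1, the other gene with the motif. All 3 lie on the minus strand, STM on chromosome 1, KNAT1 on chromosome 4 and AS1 on chromosome 2. They are written 5′ to 3′ along the gene with CGCG in capitals. The submitters name the build TAIR10, so no coordinates are given.
STM: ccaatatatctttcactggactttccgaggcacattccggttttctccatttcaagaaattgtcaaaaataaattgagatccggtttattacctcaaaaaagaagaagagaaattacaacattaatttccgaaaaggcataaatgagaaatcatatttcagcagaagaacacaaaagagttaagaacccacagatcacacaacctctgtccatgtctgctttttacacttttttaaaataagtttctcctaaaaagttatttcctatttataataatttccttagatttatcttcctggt
KNAT1: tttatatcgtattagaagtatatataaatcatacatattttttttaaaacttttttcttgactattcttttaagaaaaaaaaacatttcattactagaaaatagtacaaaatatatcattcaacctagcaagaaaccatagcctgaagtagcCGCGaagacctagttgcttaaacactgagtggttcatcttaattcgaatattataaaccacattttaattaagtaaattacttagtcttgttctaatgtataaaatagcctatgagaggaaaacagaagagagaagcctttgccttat
AS1: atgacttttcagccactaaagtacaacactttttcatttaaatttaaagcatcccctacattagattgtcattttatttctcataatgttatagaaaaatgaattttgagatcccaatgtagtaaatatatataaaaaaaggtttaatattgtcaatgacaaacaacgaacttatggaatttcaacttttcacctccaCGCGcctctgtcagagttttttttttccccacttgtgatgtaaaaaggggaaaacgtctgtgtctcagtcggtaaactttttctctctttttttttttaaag
The motif began 148 bases before the annotated start of KNAT1 and 102 bases before that of AS1. Whether the motif bears on any of the differences below was not tested.

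All 4 class I KNOX genes had a lower value in the mutant, KNAT2 at under 1 FPKM in both genotypes, where 64.6% of all analysed loci were lower. The other members were close between genotypes or too low to compare. STM (AT1G62360), the gene that sets up and maintains the shoot meristem, was at 4.67 FPKM in wild-type plants and 2.37 FPKM in the mutant. That is 1.97-fold lower, a log2 difference of -0.75. KNAT1 (AT4G08150), also called BREVIPEDICELLUS, which shapes the stem and acts in the outer and lower meristem, was at 4.49 FPKM in wild-type plants and 2.47 in the mutant, 1.82-fold lower, with a log2 difference of -0.66. STM and KNAT1 thus stood at nearly the same level in each genotype, with an STM to KNAT1 ratio of 1.04 in wild-type plants and 0.959 in the mutant. In whole aerial tissue, fewer meristem cells and less RNA per cell cannot be told apart.

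The 2 remaining class I genes, of which KNAT6 acts at organ boundaries, were lower in level. KNAT6 (AT1G23380) was at 1.47 FPKM in wild-type plants and 1.03 in the mutant, 1.43-fold lower, with a log2 difference of -0.29. KNAT2 (AT1G70510), its closest relative, was at 0.585 FPKM in wild-type plants and 0.334 in the mutant, 1.75-fold lower. KNAT2 did not reach 1 FPKM in either genotype and is not among the analysed loci. The coding sequences of KNAT2 and KNAT6 matched at 80.0% of aligned bases, and the longest run of identical bases in their transcripts was 41, so short reads could be shared between them. STM and KNAT1 shared no run above 20 bases with each other or with the other class I genes, and 67.8% of aligned coding bases.

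**Figure D1:**
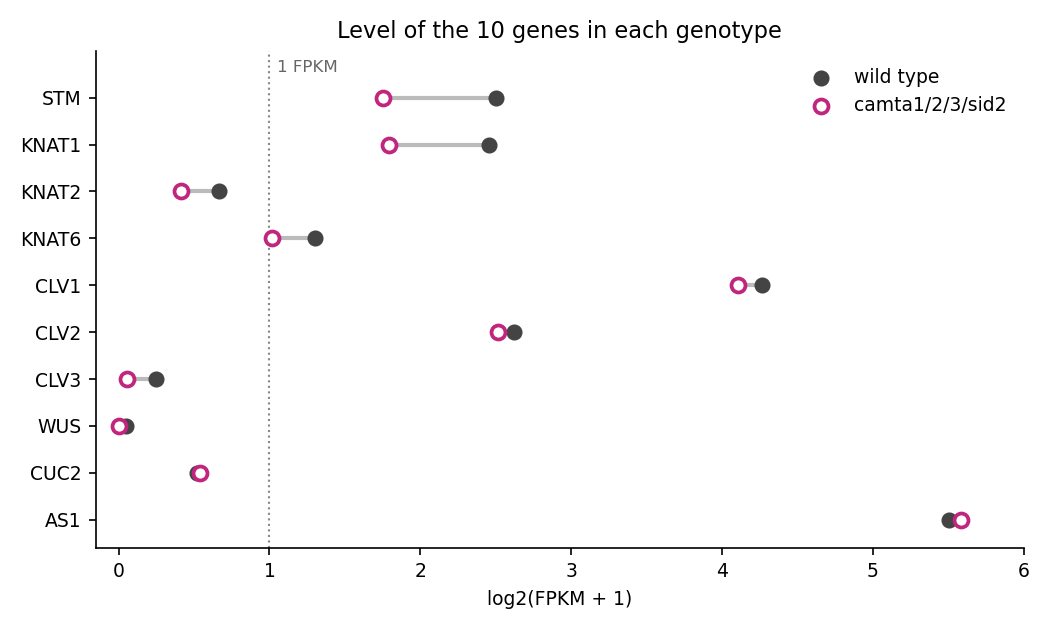
Level of each of the 10 genes as log2(FPKM + 1), with filled points for the wild type and open points for camta1/2/3/sid2, 1 combined value per genotype; the dotted line marks 1 FPKM. The open point lies to the left of the filled point for all 4 class I KNOX genes, furthest for STM and KNAT1, while AS1 and CUC2 have nearly coincident points.

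The receptors of the stem cell loop differed little. CLV1 (AT1G75820), the receptor kinase that binds CLV3, was at 18.2 FPKM in wild-type plants and 16.2 in the mutant, 1.12-fold lower. CLV2 (AT1G65380), a receptor-like protein without a kinase domain, was at 5.16 and 4.71 FPKM, 1.10-fold lower. Their log2 differences, -0.16 and -0.11, lay near the median of all analysed loci, which was -0.06. The ratio of CLV1 to CLV2 was 3.52 in wild-type plants and 3.44 in the mutant, whereas that of STM to CLV1 was 0.257 and 0.146.

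The ligand and the organiser gene were hardly detected in whole aerial tissue. CLV3 (AT2G27250), the stem cell peptide, was at 0.186 FPKM in wild-type plants and 0.0396 FPKM in the mutant, a 4.70-fold ratio of very small values. FPKM multiplied by transcript length in kilobases follows the number of fragments behind a value. With the 783 bases of the longest RefSeq transcript of CLV3, this product was 0.145 in wild-type plants and 0.0310 in the mutant. WUS (AT2G17950) was at 0.0328 FPKM in wild-type plants and listed at 0 in the mutant, so no fold is given. On the same measure STM reached 7.96 and 4.03, and KNAT1 9.04 and 4.98, so the values of both rest on far more fragments than those of CLV3. How many fragments were mapped is unknown, and the loop's ligand and transcription factor cannot be compared between genotypes at this depth.

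The leaf gene did not share the lower values of the class I KNOX genes, and the boundary gene was too low to compare. CUC2 (AT5G53950), a NAC transcription factor, was at 0.431 FPKM in wild-type plants and 0.452 in the mutant, under 1 FPKM in both. AS1 (AT2G37630), a MYB protein and the most abundant of the 10, was at 44.4 and 46.9 FPKM, a log2 difference of 0.08. The level of AS1 was 9.51 times that of STM in wild-type plants and 19.8 times in the mutant, and 9.91 and 19.0 times that of KNAT1.

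In the wild type the order of levels per length was AS1, CLV1, CLV2, STM, KNAT1, KNAT6, KNAT2, CUC2, CLV3 and WUS. In the mutant, KNAT1 stood just above STM and CUC2 above KNAT2, and the rest of the order was the same. Without values per library, whether neighbours in this order differ beyond their spread is not known. AS1 exceeded 90.8% of all loci of the table in wild-type plants and 91.4% in the mutant. STM moved from above 58.3% of loci to above 51.7%, and KNAT1 from above 57.8% to above 52.1%.

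Set against the whole table, 2 of the 6 analysed members, STM and KNAT1, were at least 1.5-fold lower on the log2(FPKM + 1) scale, where 1.99% of the 18547 analysed loci were. No member was at least 1.5-fold higher, against 1.81% of loci. No analysed member was 2-fold lower, against 0.69% of loci, or 2-fold higher, against 0.787%. Of the 6, 5 had a lower value in the mutant, the exception being AS1, beside the 64.6% of all analysed loci. The median log2 difference of the 6 was -0.22, beside -0.06 for all analysed loci, and the 4 members that did not reach 1 FPKM, KNAT2, CLV3, WUS and CUC2, are in none of these counts. Log2 differences as low as that of STM or lower were found at 219 analysed loci, 1.18% of them, and as low as that of KNAT1 at 286 loci, 1.54%. Among the 3054 loci whose higher value lay between 2 and 5 FPKM, as for STM and KNAT1, 2.62% were at least 1.5-fold lower, and the central 90% of log2 differences ran from -0.42 to 0.35.

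**Figure D2:**
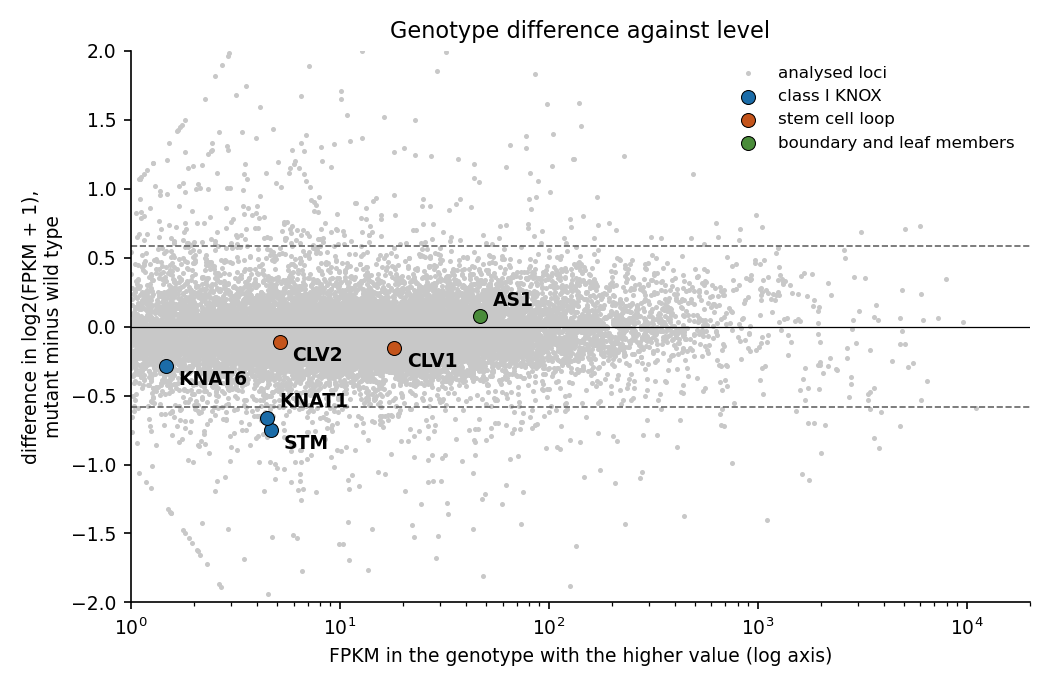
Difference in log2(FPKM + 1), mutant minus wild type, against FPKM in the genotype with the higher value on a log axis; grey points are analysed loci, coloured points the 6 analysed members, and dashed lines mark 1.5-fold, with 85 loci beyond a log2 difference of 2 not drawn. STM and KNAT1 lie below the lower dashed line at -0.75 and -0.66, while KNAT6, CLV1, CLV2 and AS1 lie within the band of the other loci.

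The KNOX relatives outside class I were close between genotypes. The class II genes KNAT3 (AT5G25220), KNAT4 (AT5G11060), KNAT5 (AT4G32040) and KNAT7 (AT1G62990) are expressed in differentiated tissue, and KNAT7 is known for its part in secondary wall formation. KNAT3 was at 27.3 FPKM in wild-type plants and 26.5 in the mutant, KNAT4 at 44.2 and 44.3, KNAT5 at 14.7 and 12.8, and KNAT7 at 2.38 and 2.18. KNATM (AT1G14760), a KNOX protein without a homeodomain, was under 1 FPKM, at 0.889 and 0.756. None of the 4 analysed genes was 1.5-fold lower or higher, and their median log2 difference was -0.07, beside -0.66 for the 3 analysed class I genes.

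The BELL homeodomain proteins, which pair with KNOX proteins to bind DNA, were also close. Of 11 analysed genes of 13 listed, 6 were lower and 5 higher, none by 1.5-fold, and their median log2 difference was -0.01; against the median of all analysed loci 3 lay below and 8 above. BLR (AT5G02030), also called PENNYWISE and a partner of STM and KNAT1, was at 8.41 FPKM in wild-type plants and 7.80 in the mutant. PNF (AT2G27990), its redundant relative, was at 1.24 and 1.06 FPKM, and ATH1 (AT4G32980), a partner of STM in the meristem and stem, was at 22.9 and 24.3. The widest differences were those of BLH10 (AT1G19700), at 12.9 and 14.2 FPKM, and PNF.

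Genes around the CLAVATA receptors had small differences, mostly on the lower side. Of 10 analysed signalling genes 8 were lower and 2 higher, none by 1.5-fold, with a median log2 difference of -0.13; against the median of all loci, 8 were below and 2 above. BAM3 (AT4G20270), a CLV1-like receptor kinase known from phloem, was at 26.3 FPKM in wild-type plants and 21.9 in the mutant, and BAM1 (AT5G65700) at 41.7 and 37.0. POL (AT2G46920), a phosphatase downstream of CLV1, was at 7.43 and 6.25 FPKM. CRN (AT5G13290), the membrane pseudokinase that pairs with CLV2, was at 8.84 and 9.43.

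Relatives of the CLV3 peptide went in both directions. Of 30 other CLE genes 19 were analysed, 10 of them lower and 9 higher, with a median log2 difference of 0.00. CLE14 (AT1G63245) was at 4.75 FPKM in wild-type plants and 0.993 in the mutant, and CLE19 (AT3G24225) at 1.98 and 0.509. CLE40 (AT5G12990), the CLV3 relative known from the root tip, was at 0.111 and 1.11 FPKM, on an annotated transcript of 259 bases. These were the only analysed CLE genes past 1.5-fold, and 8 CLE loci were listed at 0 in both genotypes. As FPKM multiplied by transcript length in kilobases, CLE14 was at 3.26 and 0.682, CLE19 at 1.68 and 0.433, and CLE40 at 0.0287 and 0.287. CLV3 was at 0.145 and 0.0310 on this measure, so CLE40, like CLV3, cannot be compared between genotypes at this depth. CLE41 (AT3G24770), a peptide of the vascular meristem, was at 64.3 and 58.5 FPKM. Of 14 other WOX genes, the family of WUS, only 3 were analysed, WOX13 (AT4G35550) at 9.47 and 9.95 FPKM, WOX1 (AT3G18010) at 2.61 and 3.16, and WOX4 (AT1G46480) at 3.34 and 2.65.

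The analysed stem cell regulators were within 1.5-fold between genotypes, and the filter of 1 FPKM alone puts them above WUS and CLV3. HEC1, HEC2, HEC3 and WOX9 of this list were under 1 FPKM in both genotypes. Of 13 analysed of 17 listed, 8 had lower and 5 higher values, and the median log2 difference was -0.02, with 5 below and 8 above the median of all analysed loci. The HAM proteins act as partners of WUS, and HAM2 (AT3G60630) was at 20.8 FPKM in wild-type plants and 24.1 in the mutant, while HAM4 (AT4G36710) was at 14.5 and 12.2. FAS2 (AT5G64630), a subunit of chromatin assembly factor 1, was at 5.50 and 4.53 FPKM. AGO10 (AT5G43810), an Argonaute protein needed for meristem maintenance, was at 18.8 and 16.6.

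The other boundary genes had no common direction. CUC1 (AT3G15170) and CUC3 (AT1G76420), which act redundantly with CUC2, were under 1 FPKM in both genotypes, at 0.501 and 0.416 FPKM for CUC1 and at 0.569 and 0.312 for CUC3. DPA4 (AT5G06250), a repressor of CUC2 in leaf margins, was at 6.55 FPKM in wild-type plants and 4.06 in the mutant, 1.62-fold lower, with a log2 difference of -0.58, just short of 1.5-fold on the log2(FPKM + 1) scale. BOP1 (AT3G57130), a co-regulator at the leaf base, was at 1.03 and 1.37 FPKM, and its paralogue BOP2 (AT2G41370) at 3.46 and 3.83. LSH4 (AT3G23290), known as a target of CUC1, was at 25.3 and 26.5 FPKM. Of 19 listed boundary genes 9 were analysed, 5 lower and 4 higher, the 5 including the microRNA loci MIR164b and MIR164c described next. The median log2 difference of the 7 above 0 in both genotypes was 0.06.

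CUC1 and CUC2 carry a site for the microRNA miR164, which is shown because the CUC2 transcript is its known target. The mature sequences, read from RefSeq on TAIR10.1 with T for U and the seed, bases 2 to 8, in capitals, were the same for miR164a and the 5′ arm of miR164b and had the same seed in miR164c.
miR164a: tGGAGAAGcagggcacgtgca
miR164c-5p: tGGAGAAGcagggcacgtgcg
The best complementary site in the CUC2 coding sequence covered coding bases 773 to 793 and in CUC1 bases 635 to 655. Both had the same letters, shown with bases that differ from the exact complement of miR164a in lower case.
CUC2 site: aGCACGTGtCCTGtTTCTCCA
That site differed from the complement at 3 bases and the best stretch in CUC3, which is not a miR164 target, at 9. This count does not separate pairs of G with U from unpaired bases. The precursor locus MIR164b was at 5.18 FPKM in wild-type plants and MIR164c at 2.08 FPKM, and both were listed at 0 in the mutant, while MIR164a was listed at 0 in both. Their annotated lengths are 153, 102 and 113 bases, and among 181 microRNA loci, 117 were listed at 0 in both genotypes and 26 in exactly 1. A listed 0 can be a failed estimate, so these loci are given as values only.

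Genes that keep KNOX genes off in leaves, and the genes of leaf polarity, stood at nearly equal levels. AS2 (AT1G65620), the LOB-domain partner of AS1, was at 3.75 FPKM in wild-type plants and 3.73 in the mutant. Of 21 genes in this list, all analysed, 14 were lower and 7 higher, none by 1.5-fold, and the median log2 difference was -0.04, with 9 genes below and 12 above the median of all analysed loci. The widest differences were those of YAB3 (AT4G00180), a gene of the lower leaf side, at 24.5 and 29.0 FPKM, and of PHV (AT1G30490), a gene of the upper leaf side, at 19.2 and 16.6. Of 10 Polycomb and related chromatin genes that hold KNOX loci silent, 8 had lower values and 2 higher, and the median log2 difference was -0.11, with 6 below and 4 above the median of all analysed loci. CLF (AT2G23380), a histone methyltransferase, was at 5.21 and 4.52 FPKM, and VRN2 (AT4G16845), a subunit of the same kind of complex, at 13.3 and 11.7.

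Hormone genes that lie downstream of KNOX and WUS proteins had small differences, and 6 of 13 listed were analysed. Of the 6, 5 were lower and 1 higher, none by 1.5-fold, and the same 5 and 1 lay below and above the median of all analysed loci. The median log2 difference was -0.26 over the 6 and -0.06 over all 13 without the filter on low values. The cytokinin response regulators ARR5 (AT3G48100), at 4.78 FPKM in wild-type plants and 3.82 in the mutant, ARR6 (AT5G62920), at 10.1 and 8.34, and ARR15 (AT1G74890), at 8.33 and 6.68, were among them. GA20OX1 (AT4G25420), a gibberellin synthesis gene that STM is known to repress, was at 1.94 and 1.35 FPKM. IPT7 (AT3G23630), a cytokinin synthesis gene that STM is known to induce, was under 1 FPKM, at 0.0991 and 0.142. Of 11 listed genes of organ initiation 5 were analysed and all 5 were lower, with a median log2 difference of -0.23, or -0.09 for the list without the filter on low values, among them the kinase PID (AT2G34650), at 7.89 and 6.45 FPKM. ANT (AT4G37750), a growth regulator of young organs, was at 11.9 FPKM in both, and it lay above the median of all analysed loci, with the other 4 below.

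**Figure D3:**
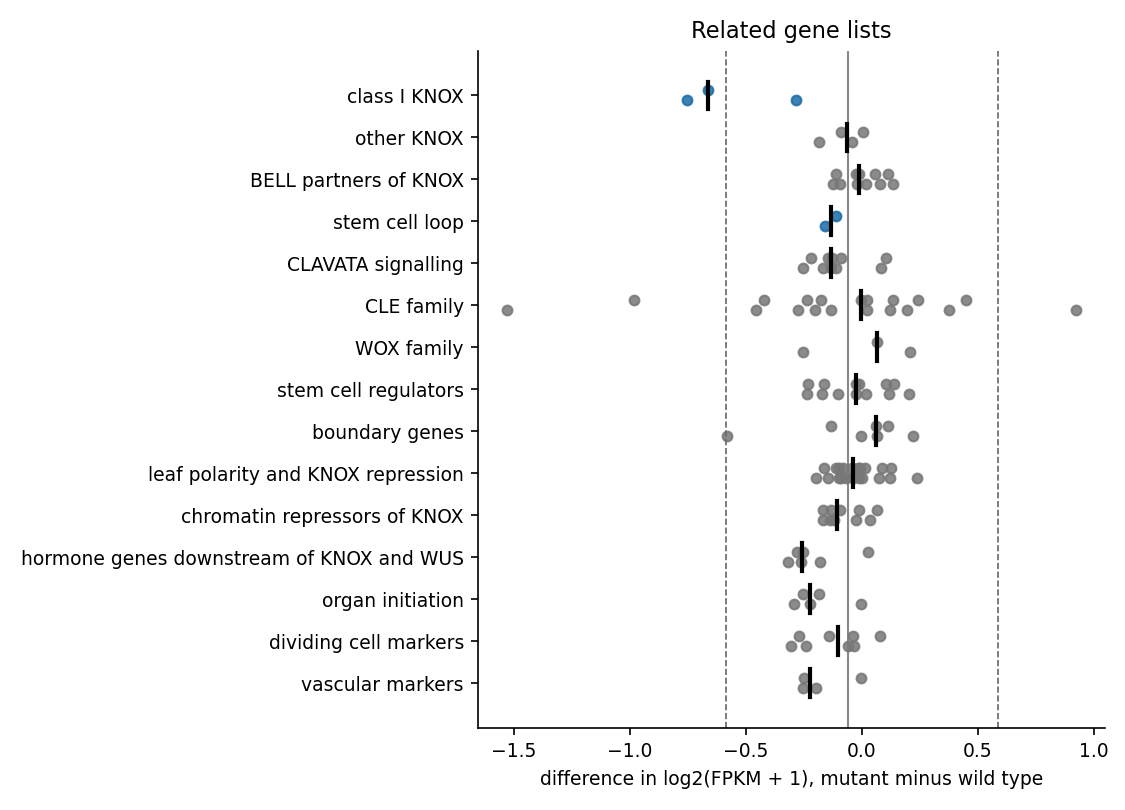
Difference in log2(FPKM + 1), mutant minus wild type, for the analysed genes above 0 in both genotypes of each list drawn. Points are genes, black bars list medians, the grey line the median of all analysed loci, and dashed lines 1.5-fold. Not drawn are the boundary and leaf members, the flower and root markers, the mutated genes, and the mesophyll markers, all 4 past 1.5-fold. The 3 analysed class I KNOX genes lie at -0.75, -0.66 and -0.29, the first 2 beyond the lower dashed line.

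Markers of other tissues give the setting of these values. Of 8 markers of dividing cells 7 were lower and 1 higher, none by 1.5-fold, with a median log2 difference of -0.10, 5 below and 3 above the median of all analysed loci, and summed levels of 225 FPKM in wild-type plants and 208 in the mutant. CDKB1;1 (AT3G54180), a mitotic kinase, was at 13.4 and 10.6 FPKM, and KN (AT1G08560), the KNOLLE protein of the cell plate, at 30.8 and 27.8. All 4 vascular markers were lower, 3 of them below the median of all analysed loci, with a median log2 difference of -0.22 and summed levels of 149 and 127 FPKM, the largest being the phloem sucrose carrier SUC2 (AT1G22710), at 121 and 102. All 7 flower markers were under 1 FPKM in both genotypes and ranged from 0.0785 to 0.818 in wild-type plants and from 0.0292 to 0.510 in the mutant. The root marker PYK10 (AT3G09260) was at 51.6 and 55.8 FPKM and CASP1 (AT2G36100), which marks the root endodermis, at 0.940 and 1.57. The mesophyll markers, with summed levels of 8929 and 10681 FPKM, went both ways, all 4 past 1.5-fold, CA1 (AT3G01500), a carbonic anhydrase, at 3603 and 5970 FPKM and RCA (AT2G39730), Rubisco activase, at 1944 and 3121, but LHCB3 (AT5G54270) and CAB3 (AT1G29910), antenna proteins, at 1760 and 815 and at 1623 and 775. The part of these markers in the lower STM and KNAT1 values was not tested. Of the mutated genes, CAMTA1 was at 13.6 and 3.30 FPKM, CAMTA3 at 9.94 and 2.68, CAMTA2 at 9.25 and 6.32, and ICS1, the SID2 gene, at 4.56 and 3.73, and without known alleles these levels do not check the labels.

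The size of the difference of the weakly expressed members depends on the pseudocount. With 0.1 in place of 1, the log2 difference was -0.95 for STM and -0.84 for KNAT1, -0.66 for KNAT2 and -0.48 for KNAT6. As plain ratios, the log2 differences were -0.98 for STM, -0.86 for KNAT1, -0.81 for KNAT2 and -0.52 for KNAT6, so the 4 class I genes lay closer together than on the scale with a pseudocount of 1. CLV3 went from -0.19 with a pseudocount of 1 to -2.23 as a plain ratio. AS1 stayed at 0.08 and CLV1 between -0.16 and -0.17 under all 4 treatments.

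**Figure D4:**
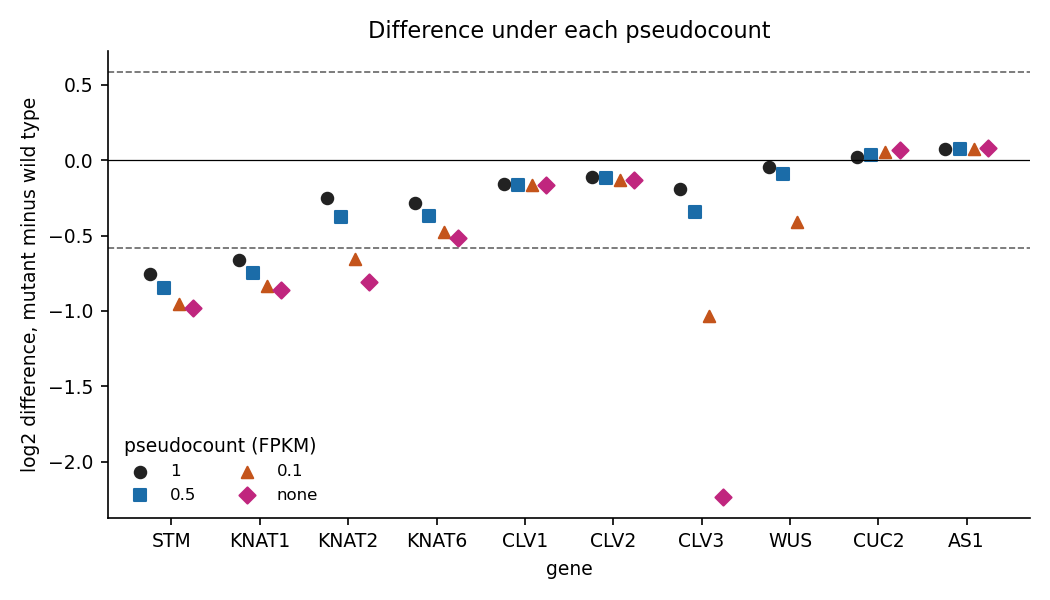
Log2 difference, mutant minus wild type, of each of the 10 genes with pseudocounts of 1, 0.5 and 0.1 FPKM and as a plain ratio; WUS, listed at 0 in the mutant, has no plain ratio, and dashed lines mark 1.5-fold. STM and KNAT1 lie below the lower dashed line under all 4 treatments, from -0.75 to -0.98 and from -0.66 to -0.86, and KNAT2 and CLV3 under the treatments with 0.1 or none.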

How the data were processed

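The deposited table holds FPKM values, per the file headers, with 1 value per genotype and locus that the authors combined from 3 libraries each. The manner of this combination is not stated there. Per the submitters' processing notes, the tools were TopHat 1.4.1, Cufflinks 2.1.1 and Cuffdiff, on the build TAIR10. FPKM is not a count, and no model for counts was fitted. The depth is not known; over all loci the FPKM values added up to 908640 for wild-type plants and 891178 for camta1/2/3/sid2.

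From these values the difference in log2(FPKM + 1) was computed for 18547 loci with at least 1 FPKM in at least 1 genotype, and the shares past 1.5-fold and 2-fold were counted. Alternatives were pseudocounts of 0.1 and 0.5, no filter, a filter of 5 FPKM and centring on the median. Leaving out loci at 0, keeping protein-coding nuclear loci, and plain ratios were added after seeing the data. The members and lists were chosen with earlier results of these data known. Named are all members, the other CUC genes, AS2, CRN, the mutated genes, and in each list the genes past 1.5-fold or otherwise examples among those with the widest differences; further list members, such as partners of a member, were picked as examples after their values were seen.

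Symbols, transcript lengths and sequences came from RefSeq on TAIR10.1, which matched 32813 of 33557 loci (97.8%). Of 204 list entries, 2 did not carry their symbol there and were not counted. The procedure was tested on simulated data, with differences of 2-fold or more set at loci of at least 5 FPKM. The test did not cover levels as low as those of the class I KNOX genes. Python 3.11.15, numpy 2.4.6, pandas 2.3.3, Biopython 1.88 and matplotlib 3.10.9 were used.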

Additional observations from a re-analysis of the deposited data

How the results depend on the processing

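No paired analysis was possible because the table has 1 combined value per genotype and no replicate columns, and for the same reason no library could be left out. Under all alternatives that kept them, STM and KNAT1 stayed at least 1.5-fold lower. A filter of 5 FPKM keeps neither, so the count of members at least 1.5-fold lower was then 0 of 3. With a pseudocount of 0.1, KNAT2 reached -0.66 and CLV3 -1.03, and as plain ratios they reached -0.81 and -2.23. Both lie under 1 FPKM, so the counts of members did not include them. Centring gave -0.69 for STM and -0.60 for KNAT1. The share of all loci at least 1.5-fold lower ranged from 1.19% without a filter to 3.09% with a pseudocount of 0.1. No result changed sign past 1.5-fold. The unknown number of mapped fragments limits CLV3, WUS, CUC2 and KNAT2.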
